A study of Mus musculus with 14 samples.

Results

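MHC class II presentation genes encode the proteins that load peptides onto MHC class II molecules and the regulator that switches these genes on. They were followed here in brain tissue of 14 female mice aged 23 months. The group holds 7 genes of the 43346 in the count table, taken by name from the pathway and not by a threshold on their values: the class II chains H2-Aa, H2-Ab1 and H2-Eb1, the invariant chain Cd74, the peptide editor H2-DM (H2-DMa and H2-DMb1) and the regulator Ciita. The list was chosen with earlier results of these data known. In mm10, chromosome 17 holds H2-DMa (ENSMUSG00000037649, 34135182 to 34139101), H2-DMb1 (ENSMUSG00000079547, 34153072 to 34160230), H2-Ab1 (ENSMUSG00000073421, 34263209 to 34269418), H2-Aa (ENSMUSG00000036594, 34282744 to 34287827) and H2-Eb1 (ENSMUSG00000060586, 34305877 to 34316199). Ciita (ENSMUSG00000022504) lies on chromosome 16 from 10488178 to 10527564, and Cd74 (ENSMUSG00000024610) on chromosome 18. All 7 were found in the table and all 7 passed the filter on low counts in each comparison. The samples were 4 non-transgenic littermates (NTG), 5 APP/PS1 mice on vehicle and 5 APP/PS1 mice given CP2. All carry the strain label C57BL/6;SJL-Tg, and APP/PS1 mice are double transgenic for mutant human APP and PS1, labelled APP/PS1 +/+. CP2, a tricyclic pyrone that weakly inhibits complex I of the mitochondrial respiratory chain, was given in drinking water with PEG at a dose of 25 mg/kg/day, starting when the mice were 9 months old and lasting 14 months. GEO's treatment label for both other groups is "non-treated", while the protocol describes PEG vehicle water. NTG mice given CP2 are not analysed here, so a CP2 effect outside the transgenic background could not be measured. Mice are named by library number: 7 to 10 in NTG, 16 to 20 in APP/PS1 and 21 to 25 in CP2-treated APP/PS1 mice.

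Class II molecules on the cell surface present peptides from taken-up proteins to CD4 T cells. Their alpha and beta chains assemble on the invariant chain, which fills the peptide groove until endosomal proteases cut it back, and H2-DM then exchanges the remaining fragment for other peptides. The genes share promoter elements, the X and Y boxes, that are bound by the RFX and NF-Y complexes, on which CIITA acts as a coactivator. In the brain class II is carried mainly by activated microglia and by macrophages and dendritic cells of the borders, and in mouse models of amyloid deposition it is known on microglia near plaques.

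The promoter stretches below are shown because they carry that shared module in genes of this group. The RefSeq promoter table (GRCm38.p6, the mm10 assembly, 250 bases before to 50 bases after each start) lists 4 of the 7 genes, and 3 of these 4 (H2-Aa, H2-Eb1 and H2-DMb1) held GNAAC followed after 20 to 30 bases by TGATTGG. H2-Ob, which encodes a chain of the H2-DM inhibitor H2-O, held it too. Capitals mark GNAAC, the core of an X box, and TGATTGG, a Y box that contains the ATTGG of a CCAAT box on the other strand. Each is written 5′ to 3′ on the strand of the gene.
H2-Aa, chr17:34287852-34287919, minus strand: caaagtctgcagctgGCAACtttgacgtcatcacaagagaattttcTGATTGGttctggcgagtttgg
H2-Eb1, chr17:34305761-34305827, plus strand: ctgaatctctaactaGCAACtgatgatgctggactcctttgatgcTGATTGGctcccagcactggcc
H2-DMb1, chr17:34153082-34153149, plus strand: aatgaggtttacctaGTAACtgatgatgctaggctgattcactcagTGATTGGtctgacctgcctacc
H2-Ob, chr17:34238803-34238867, plus strand: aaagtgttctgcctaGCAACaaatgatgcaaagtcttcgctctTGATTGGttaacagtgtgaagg

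The boxes were 26 bases apart in H2-Aa and H2-DMb1, 25 in H2-Eb1 and 23 in H2-Ob. The Y box ended 43 bases before the RefSeq start in H2-Aa, 54 in H2-Eb1, 56 in H2-DMb1 and 52 in H2-Ob. Of all 32851 listed promoters, 0.323% held the pair on either strand and 7.82% held TGATTGG alone. H2-Oa and H2-Eb2 also held the pair. The letters were chosen after these promoters had been read, so the matches describe the genes and test nothing. Both H2-DMa entries in the table (12350 and 9664 bases from the start of H2-DMa in the count table) lacked the pair. The stretch around that start was therefore not searched, and whether it holds the pair is not known here. H2-Ab1, Cd74 and Ciita are named only.

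Each mouse had between 70548781 and 106235625 counts. In bulk tissue, fewer cells of a type and less RNA per cell cannot be told apart. Mouse 16 (APP/PS1) stood apart by its striatal genes, whose 7 markers summed to 1934 CPM (counts scaled to a common library size) there and to between 132 and 276.9 in the other mice. The ribosomal RNA-like genes Yam1 and AY036118 took 4.72 to 7.5% of the counts in NTG, 2.4 to 5.51% in APP/PS1 and 4.49 to 7.4% in CP2-treated mice. The samples are separate mice, and the labels name no batch or litter.

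Per length of transcript, Cd74 and H2-DMa were the most abundant members and Ciita the least in every group. In NTG mice the deposited RPKM was 4.35 ± 0.607 (SD, n = 4) for H2-DMa and 4.35 ± 1.04 (SD, n = 4) for Cd74, and these ranges overlapped. The class II chains followed in NTG at 1.11 ± 0.329 RPKM for H2-Eb1, 0.974 ± 0.315 for H2-Aa and 0.811 ± 0.112 for H2-Ab1 (SD, n = 4), then H2-DMb1 at 0.746 ± 0.18, and none of these neighbours was separated from the next. Ciita, at 0.315 ± 0.0799 RPKM (SD, n = 4), lay below all of them in NTG.

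In APP/PS1 mice Cd74 stood at 17.6 ± 9.48 RPKM (SD, n = 5) and no longer overlapped H2-DMa at 6.71 ± 0.758. H2-Eb1 (3.44 ± 1.72), H2-Aa (2.49 ± 1.36) and H2-Ab1 (2.254 ± 0.828, SD, n = 5) overlapped one another, while H2-DMb1 (1.11 ± 0.131) lay below H2-Ab1 and Ciita (0.311 ± 0.0603) below H2-DMb1. CP2-treated mice had the same first and last genes, with Cd74 at 11.2 ± 1.94 RPKM, H2-DMa at 5.31 ± 0.948 and Ciita at 0.3 ± 0.0645 (SD, n = 5). Their 3 class II chains had means between 1.37 and 1.7 RPKM and overlapped H2-DMb1 at 0.931 ± 0.291.

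**Figure D1:**
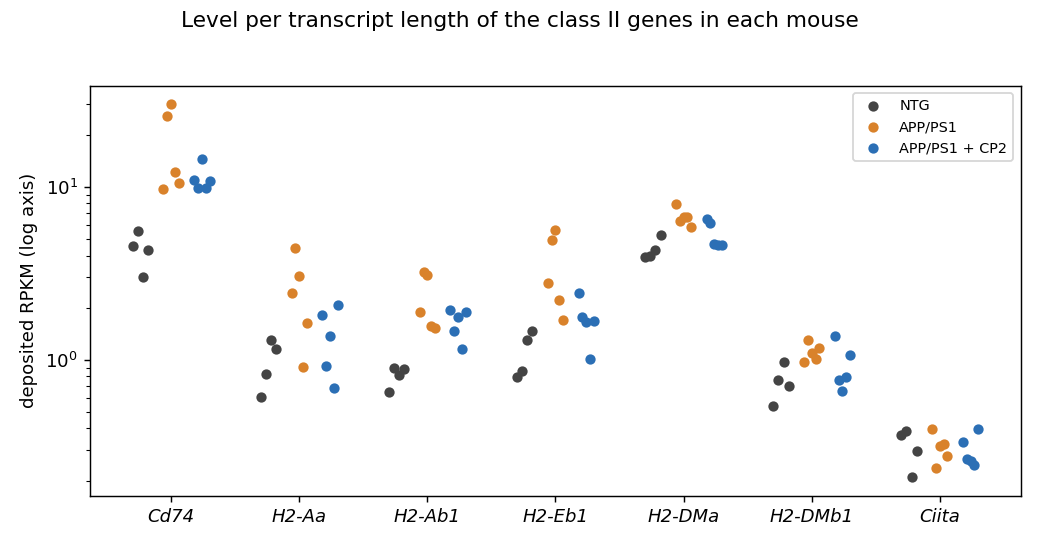
Deposited RPKM (log axis) of the 7 class II genes, with 1 point per mouse and groups by colour. Cd74 and H2-DMa lie highest and Ciita lowest in each group, and Cd74 reaches 29.9 RPKM in 1 APP/PS1 mouse against at most 5.54 in NTG.

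The comparison of APP/PS1 with NTG mice asks how these genes differed between the 2 groups in aged brain. For every member, on chromosome 17 or not, genotype cannot be told apart from an on or off pattern of H2-Ea-ps, described further on. Cd74, H2-Ab1, H2-Eb1 and H2-DMa were higher in APP/PS1 mice, and Ciita did not pass the test. With an adjusted p under 0.05 in edgeR's quasi-likelihood test (Benjamini-Hochberg over 16417 genes), 4 of the 7 members were called, all higher in APP/PS1, where 5.68% of all genes tested were called in either direction and 4.34% as higher. At an unadjusted p under 0.05 the count was 6 of 7, all higher, beside 18.7% of all genes (10.6% higher). The median log2 fold change was 1.27 over the members and -0.0042 over all genes tested. All CPM values below were scaled with TMM factors over the 14 mice.

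Cd74, the invariant chain (chromosome 18, 60803848 to 60812646), had 7.93, 10.1, 5.36 and 7.25 CPM in NTG mice 7 to 10. APP/PS1 mice 16 to 20 had 16.4, 41.5, 49.1, 20.8 and 18.4 CPM. Every APP/PS1 mouse lay above every NTG mouse, with mice 17 and 18 well above the other APP/PS1 mice. On the log2 scale it rose by 1.93 with a standard error of 0.36 (3.82-fold, adjusted p = 0.0117, edgeR). Leaving out each mouse in turn kept it between 1.67 and 2.09.

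H2-Ab1, the beta chain of the I-A molecule, had 1.31, 1.9, 1.69 and 1.72 CPM in NTG mice and 3.72, 6.02, 5.89, 3.11 and 3.12 CPM in APP/PS1 mice. Its groups did not overlap either, and mice 17 and 18 were again the highest. It rose by 1.40 on the log2 scale (standard error 0.24, adjusted p = 0.00777, edgeR). H2-Eb1, the beta chain of the I-E molecule, had 1.17, 1.32, 1.95 and 2.08 CPM in NTG and 3.94, 6.7, 7.7, 3.2 and 2.5 CPM in APP/PS1 mice, without overlap. It rose by 1.56 (standard error 0.35, adjusted p = 0.0303, edgeR) on the log2 scale. That call was lost without any 1 of the 4 NTG mice and without mouse 17 or 18 (adjusted p between 0.0552 and 0.096, edgeR).

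H2-Aa, the alpha chain that pairs with H2-Ab1, had 1.4, 2.01, 3.08 and 2.6 CPM in NTG mice. In APP/PS1 mice 16 to 20 it had 5.45, 9.53, 6.65, 2.06 and 3.78 CPM, and mouse 19 lay within the NTG range, so the groups overlapped. Its log2 fold change of 1.27 (standard error 0.40) had an adjusted p of 0.111 in edgeR. It passed the threshold without mouse 19 (adjusted p = 0.0326, edgeR) and in DESeq2 (adjusted p = 0.0122), and over its 17 alternatives the adjusted p ran from 0.0122 to 0.585.

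The genes of the editor H2-DM had smaller fitted fold changes than Cd74 and the class II chains. H2-DMa, its alpha chain, had 7.91, 8.45, 8.9 and 10.3 CPM in NTG and 15.6, 11.97, 12.83, 13.37 and 11.95 CPM in APP/PS1 mice, with every APP/PS1 mouse higher, and it rose by 0.56 on the log2 scale (standard error 0.10, adjusted p = 0.011, edgeR). Here mouse 16, not 17 or 18, was the highest. H2-DMb1, its beta chain, had 0.986, 1.47, 1.828 and 1.25 CPM in NTG and 1.74, 2.216, 1.9, 1.825 and 2.17 CPM in APP/PS1 mice, where mice 16 and 19 lay below NTG mouse 9, and its log2 fold change of 0.51 (standard error 0.18) had an adjusted p of 0.144 in edgeR. H2-DMb1 shares sequence with its neighbour H2-DMb2: 13.5% of the 101-base windows of its longest GENCODE M21 transcript also lie in H2-DMb2, so its counts are uncertain where the authors' aligner placed such reads. None of the other 6 genes shared a window with another gene, but this search does not cover every overlap. Ciita shares exon bases with Dexi and Mir5107 lies within Cd74, as given below.

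Ciita, the coactivator of class II promoters, had 2.38, 2.62, 1.39 and 1.86 CPM in NTG and 2.52, 1.43, 1.94, 2.09 and 1.81 CPM in APP/PS1 mice. The groups covered the same range, and the log2 fold change was -0.07 with a standard error of 0.21 (adjusted p = 0.893, edgeR). Its sign changed when mouse 7, 8 or 17 was left out. Mouse 17, with the most H2-Aa and H2-Ab1, had the least Ciita of the APP/PS1 mice. In GENCODE M21, 329 of 9535 exon bases of Ciita are shared with Dexi, a gene on the other strand, and the authors counted a read on every gene it overlapped with no strand setting stated, so reads of the 2 genes cannot be told apart there.

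**Figure D2:**
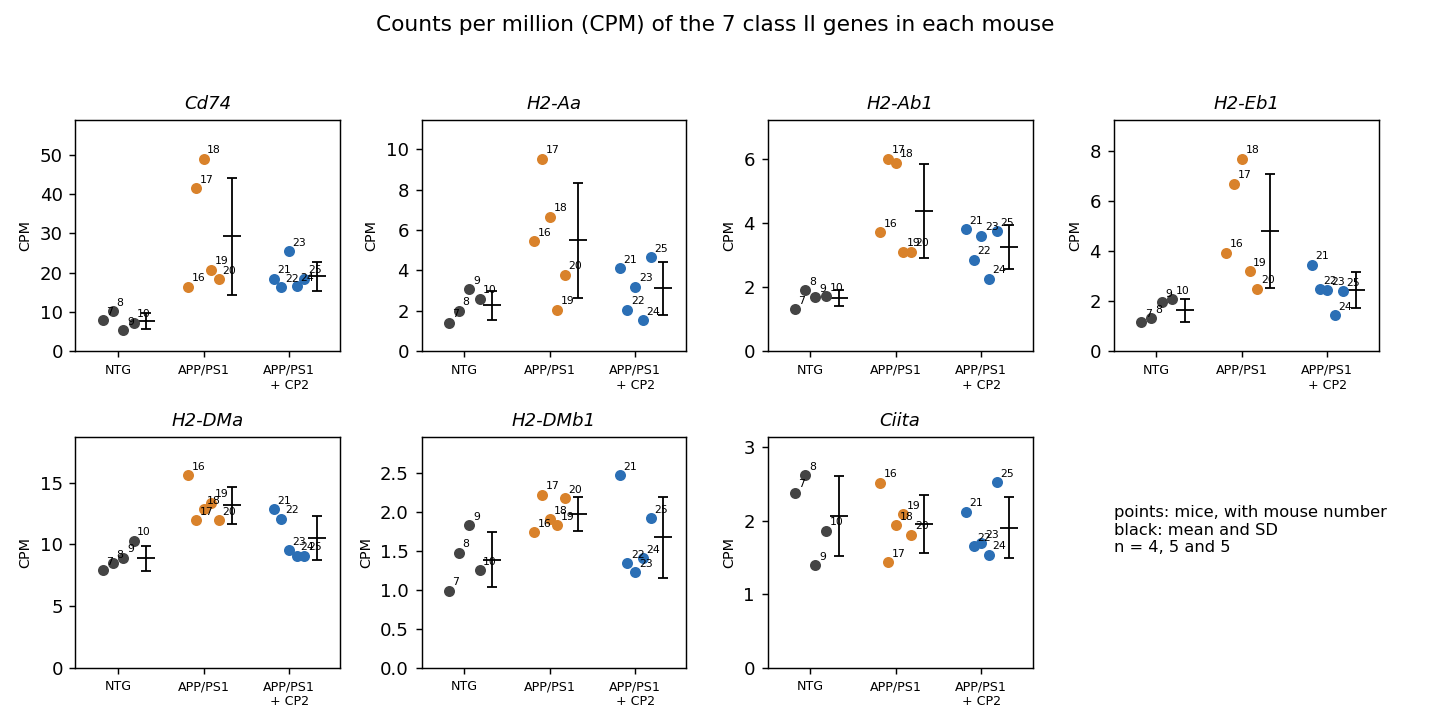
CPM (TMM-scaled, linear axes from 0) of each class II gene, with 1 numbered point per mouse and the mean and SD in black. Cd74, H2-Ab1, H2-Eb1 and H2-DMa of all 5 APP/PS1 mice lie above all 4 NTG mice, and the 3 groups overlap in Ciita.

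Without overlap between groups were 4 of the 7 members, all higher in APP/PS1, beside 9.97% of all genes tested in either direction and 6.15% as higher. With the ribosomal RNA share as a covariate, an alternative chosen after seeing the data, 0 of the 7 had an adjusted p under 0.05 (Cd74 0.0641, H2-Ab1 0.0689, H2-DMa 0.0897 and H2-Eb1 0.228, edgeR). The log2 fold change was then 1.94 for Cd74, 1.24 for H2-Ab1, 1.17 for H2-Eb1, 0.46 for H2-DMa and 0.71 for H2-Aa, 720 genes were called in all, and 5 members had an unadjusted p under 0.05.

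Whether the compound changed these genes was asked within the transgenic line, with CP2 against vehicle. No member passed with an adjusted p under 0.05: edgeR called 0 of 7, and DESeq2 and limma-voom also called 0 of 7, while edgeR called 0.00609% of the 16407 genes tested (1 gene). At an unadjusted p under 0.05 edgeR gave 2 of the 7, H2-Eb1 and H2-DMa, both lower with CP2, beside 6.55% of all genes (3.66% lower). All 7 fitted values were below 0, with a median of -0.43 over the members and -0.006 over all genes tested. All 7 pairs of groups overlapped, while 1.18% of all genes tested did not overlap (0.616% lower).

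H2-Eb1 had 3.46, 2.47, 2.43, 1.43 and 2.41 CPM in CP2-treated mice 21 to 25, against 2.5 to 7.7 CPM in vehicle-treated mice. Mouse 20 on vehicle lay just above 4 of the CP2-treated mice and below mouse 21. The fitted log2 difference was -0.99 (standard error 0.32, adjusted p = 0.744, edgeR), and the adjusted p lay between 0.279 and 0.989 over its 18 alternatives. H2-DMa had 12.8, 12.1, 9.52, 9.08 and 9.09 CPM with CP2, so that mice 21 and 22 lay within the vehicle range of 11.95 to 15.6 and mice 23 to 25 below it. Mice 23 to 25 are also those with close to no H2-Ea-ps counts, described further on, and whether that bears on these values was not tested. Its log2 difference came to -0.33 (standard error 0.12, adjusted p = 0.744, edgeR).

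For Cd74 the CP2-treated mice had 18.5, 16.4, 25.5, 16.6 and 18.4 CPM, which overlapped the lower part of the vehicle range, with mouse 22 (16.35) just below the lowest vehicle mouse (16.39), and mice 17 and 18 on vehicle had no counterpart among them. The fitted log2 difference was -0.62 (standard error 0.30, adjusted p = 0.744, edgeR), and -0.35 without mouse 18. H2-Ab1 had 3.81, 2.86, 3.61, 2.26 and 3.75 CPM with CP2, with a log2 difference of -0.43 (standard error 0.23, adjusted p = 0.749, edgeR). H2-Aa had 4.12, 2.05, 3.19, 1.55 and 4.66 CPM, with a log2 fold change of -0.83 (standard error 0.40, adjusted p = 0.744, edgeR), -0.54 without mouse 17 and -0.37 with the ribosomal covariate. In each of these 3 genes the vehicle-treated mice spread more widely than the CP2-treated mice, with an SD of 14.97 against 3.73 CPM in Cd74.

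H2-DMb1 with CP2 ranged from 1.23 to 2.47 CPM and Ciita from 1.54 to 2.52 CPM, and both overlapped the vehicle range. Their log2 fold changes were -0.24 (standard error 0.19, adjusted p = 0.802) and -0.04 (standard error 0.18, adjusted p = 0.963, edgeR). Neither passed the test.

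CP2-treated APP/PS1 mice were also set against NTG mice, to show what difference from non-transgenic brain was left under treatment. Cd74 and H2-Ab1 rose, and 2 of the 7 members were called at an adjusted p under 0.05 in edgeR, both higher, beside 6.02% of the 16416 genes tested (4.56% higher). The same 2 were the members whose groups did not overlap, beside 9.73% of all genes (6.43% higher). At an unadjusted p under 0.05 the count was 3 of 7, all higher, beside 20.2% of all genes (11.6% higher). The log2 fold change was 1.32 for Cd74 (standard error 0.18, adjusted p = 0.00175, edgeR) and 0.97 for H2-Ab1 (standard error 0.18, adjusted p = 0.00855). H2-Eb1 had 0.57 (standard error 0.25, adjusted p = 0.223), H2-Aa 0.45 (standard error 0.33, adjusted p = 0.492) and H2-DMa 0.24 (standard error 0.13, adjusted p = 0.313). H2-DMb1 (0.27, adjusted p = 0.579) and Ciita (-0.11, adjusted p = 0.816) were also not called. Without mouse 21 the value of H2-DMb1 was 0.09, that of H2-DMa 0.16, and without mouse 25 that of H2-Aa was 0.26. These mice and the vehicle-treated mice were compared with the same NTG mice, so the fold changes share their control. Across the 17 alternatives of this comparison both calls held, with adjusted p of at most 0.0293 for Cd74 and 0.0304 for H2-Ab1.

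Because a ratio within a library needs no scaling between mice, each member was also set against Cd74 by its raw counts, in 6 ratios and 3 comparisons. Adjusted over all 18, 0 ratios differed in any comparison (exact two-sided permutation test, lowest adjusted p = 0.0714). A single ratio at the smallest exact p these groups allow could not have passed this adjustment. At an unadjusted exact p under 0.05, 3 differed between APP/PS1 and NTG mice, 0 between CP2-treated and vehicle-treated mice and 3 for CP2-treated transgenic mice against NTG. In NTG mice 7 to 10 the Ciita count was 0.3, 0.259, 0.259 and 0.257 of the Cd74 count. Among APP/PS1 mice it was 0.154, 0.0345, 0.0395, 0.1 and 0.0982, and with CP2 0.115, 0.101, 0.0664, 0.0925 and 0.137. All 10 transgenic mice lay below all NTG mice in this ratio, with a mean log2 ratio of -1.90 in NTG, -3.78 in APP/PS1 (exact p = 0.0159, adjusted p = 0.0714) and -3.33 with CP2 (exact p = 0.00794 against NTG, adjusted p = 0.0714). Against NTG, Cd74 had log2 fold changes of 1.93 and 1.32 in these groups and Ciita -0.07 and -0.11 (edgeR). The lower ratio thus mostly restates the higher Cd74 counts and shows no fall of Ciita.

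The mean log2 ratio of H2-DMa to Cd74 was above 0 in NTG (0.24 ± 0.455, SD, n = 4) and below 0 in APP/PS1 (-1.01 ± 0.812, n = 5, exact p = 0.0397, adjusted p = 0.119) and with CP2 (-0.86 ± 0.397, n = 5, exact p = 0.00794, adjusted p = 0.0714, the smallest exact p that 4 against 5 mice allow). H2-DMb1 had differences of -1.28 and -1.08 from NTG in the same order (exact p = 0.0159 and 0.0238, adjusted p = 0.0714 and 0.0857). For the class II chains the differences were smaller: from NTG to APP/PS1 the log2 ratio differed by -0.67 for H2-Aa, -0.47 for H2-Ab1 and -0.35 for H2-Eb1 (exact p between 0.103 and 0.341). Between CP2-treated and vehicle-treated mice the differences ran from -0.41 for H2-Eb1 to 0.45 for Ciita (exact p between 0.151 and 0.698).

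**Figure D3:**
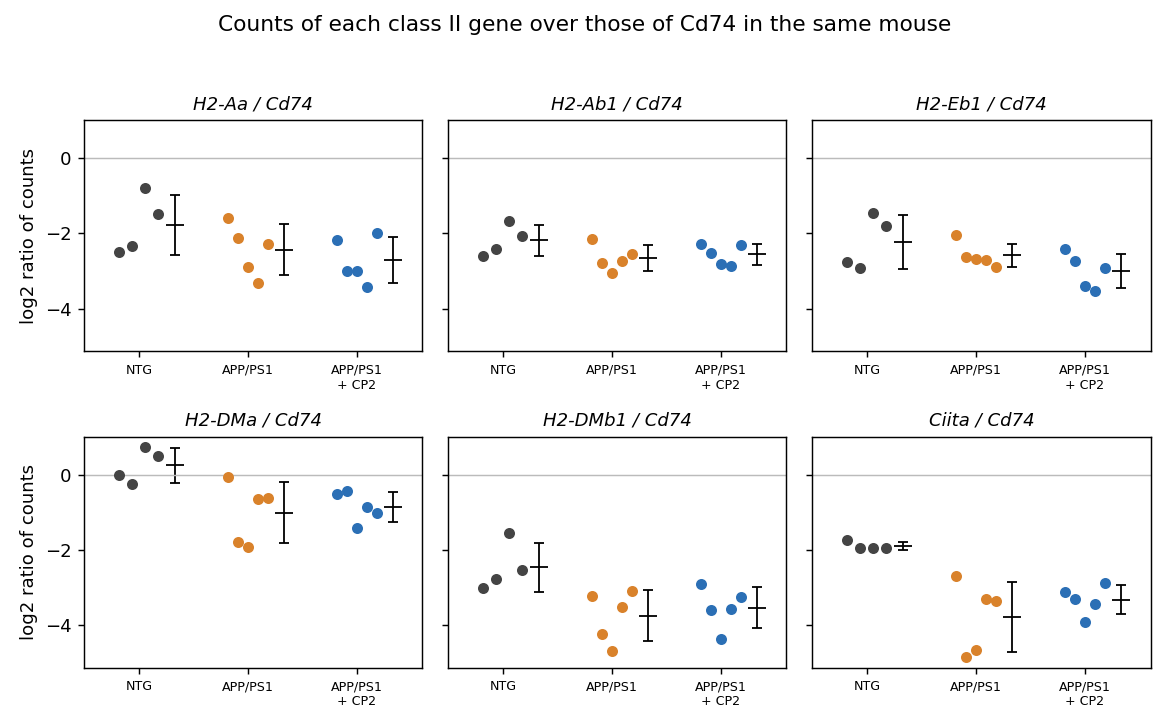
Log2 ratio of the raw counts of 6 class II genes to those of Cd74 in the same mouse, with 1 point per mouse and the mean and SD in black. Ciita lies lower against Cd74 in all 10 transgenic mice than in the 4 NTG mice, while the ratios of H2-Aa, H2-Ab1 and H2-Eb1 overlap between the groups.

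Within groups, the class II chains were high or low in much the same mice. As a description over 14 mice, the deviations from the group means in log2 CPM had a Pearson r of 0.86 for H2-Aa and H2-Ab1, 0.87 for H2-Ab1 and H2-Eb1, 0.74 for Cd74 and H2-Ab1 and 0.38 for Cd74 and H2-Aa. Ciita had values between -0.20 and 0.12 with each of the other 6. The points share libraries and their scaling, and H2-Aa, H2-Ab1 and H2-Eb1 are neighbours on chromosome 17. Among 16198 genes tested in all comparisons, the 8 other genes whose deviations were most like the mean of Cd74, H2-Aa, H2-Ab1 and H2-Eb1 were Gm26530 (r = 0.88), Gm9970 (0.80), Bloc1s4 (0.79), Mir5107 (0.78), Bsdc1 (0.77), Pfdn6 (0.765), Mrps25 (0.76) and Frmpd1 (0.76). These r values are the highest of 16198 over 14 mice, and whether they exceed what unrelated genes give was not tested. Mir5107 lies within Cd74, and its counts can be Cd74 reads. With Spearman's correlation 3 of these 8 genes stayed among the first 8, and with Cd74 alone as the reference 1 did.

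The pathway around the members was read through 6 lists with 39 genes in the table, of which 31 were tested. Between APP/PS1 and NTG mice 13 were called at an adjusted p under 0.05, all higher. Between CP2-treated and vehicle-treated mice edgeR called 0 of the 31 (2 at an unadjusted p under 0.05), and for CP2-treated transgenic mice against NTG 11 were called, all higher. The background shares are those given for each comparison above.

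The antigen processing list rose as a whole in the first comparison: 8 of 8 genes were called higher in APP/PS1 mice and none of the 8 groups overlapped, with a median log2 fold change of 0.73. Ctss, the protease that trims the invariant chain in class II cells, rose by 1.68 (standard error 0.15, adjusted p = 0.000202, edgeR) on the log2 scale. Ctsz (1.52) and Ctsd (1.53), lysosomal proteases, and Ifi30, the thiol reductase that opens antigen disulfides (0.78, adjusted p = 0.0346), were also called. With CP2 against vehicle none of the 8 was called by adjusted p, and Ctsb had the smallest p (log2 fold change -0.18, adjusted p = 0.744, edgeR). Against NTG 7 of 8 were called higher in CP2-treated mice, among them Ctss (1.36), and the exception Cst3, an inhibitor of cysteine proteases, had 0.12 (adjusted p = 0.707). Cst3 had 1406.1 and 1575.4 CPM in mice 21 and 22 and 1163.5, 948.9 and 943.8 in mice 23 to 25, against 1070.7 to 1207.3 in NTG. Ctss had 224.2 and 247.3, then 175.4, 164.2 and 146.5 CPM in the same order. Mice 23 to 25 had close to no H2-Ea-ps counts, described further on, and whether that bears on these values was not tested.

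In the class II transcription list, edgeR called 0 of 7 genes in each of the 3 comparisons, and 0 of 7 had an unadjusted p under 0.05. Rfx5, the DNA-binding subunit of RFX, had log2 fold changes of -0.02 (APP/PS1 against NTG), 0.08 (CP2 against vehicle) and 0.06 (CP2-treated against NTG). Nfyb, a subunit of NF-Y, had the smallest p of the list in the first comparison (-0.11, adjusted p = 0.296). Their summed level was 212.5 to 218.5 CPM in NTG, 211.6 to 215 in APP/PS1 and 207.1 to 215 CPM in CP2-treated mice.

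Of the interferon gamma axis, 8 of 9 genes were tested. In APP/PS1 against NTG 3 were called, all higher, among them Irf8, a transcription factor of myeloid cells (log2 fold change 1.72, adjusted p = 0.000532), and the receptor chain Ifngr1 (0.39, adjusted p = 0.00465, edgeR). Irf1, a transcription factor induced by interferon, had 0.51 (adjusted p = 0.069). The ligand Ifng had 0 to 9 counts per mouse and was not tested. Against NTG, CP2-treated mice had 2 called, among them Irf8 (1.499), and against vehicle edgeR called 0 (0 at an unadjusted p under 0.05).

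Among the genes of class II turnover, edgeR called 0 of 4 in each comparison, and only Sppl2a in APP/PS1 against NTG had an unadjusted p under 0.05. March1, a ubiquitin ligase that removes class II from the surface, had log2 fold changes of 0.07, 0.02 and 0.10 in the order of comparisons above, and Sppl2a, the intramembrane protease that clears the last invariant chain fragment, had 0.16 (adjusted p = 0.0675) between APP/PS1 and NTG mice. Of the costimulation list 3 of 6 genes were tested. Cd86, a costimulator (1.56, adjusted p = 0.000715), and Cd274, the inhibitory ligand PD-L1 (1.27, adjusted p = 0.00749, edgeR), were higher in APP/PS1 than in NTG mice. Both were also called in CP2-treated mice against NTG (1.22 and 0.89), and against vehicle they had -0.35 (adjusted p = 0.749) and -0.38 (adjusted p = 0.744). Cd80, Cd40 and Pdcd1lg2 did not pass the filter.

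**Figure D4:**
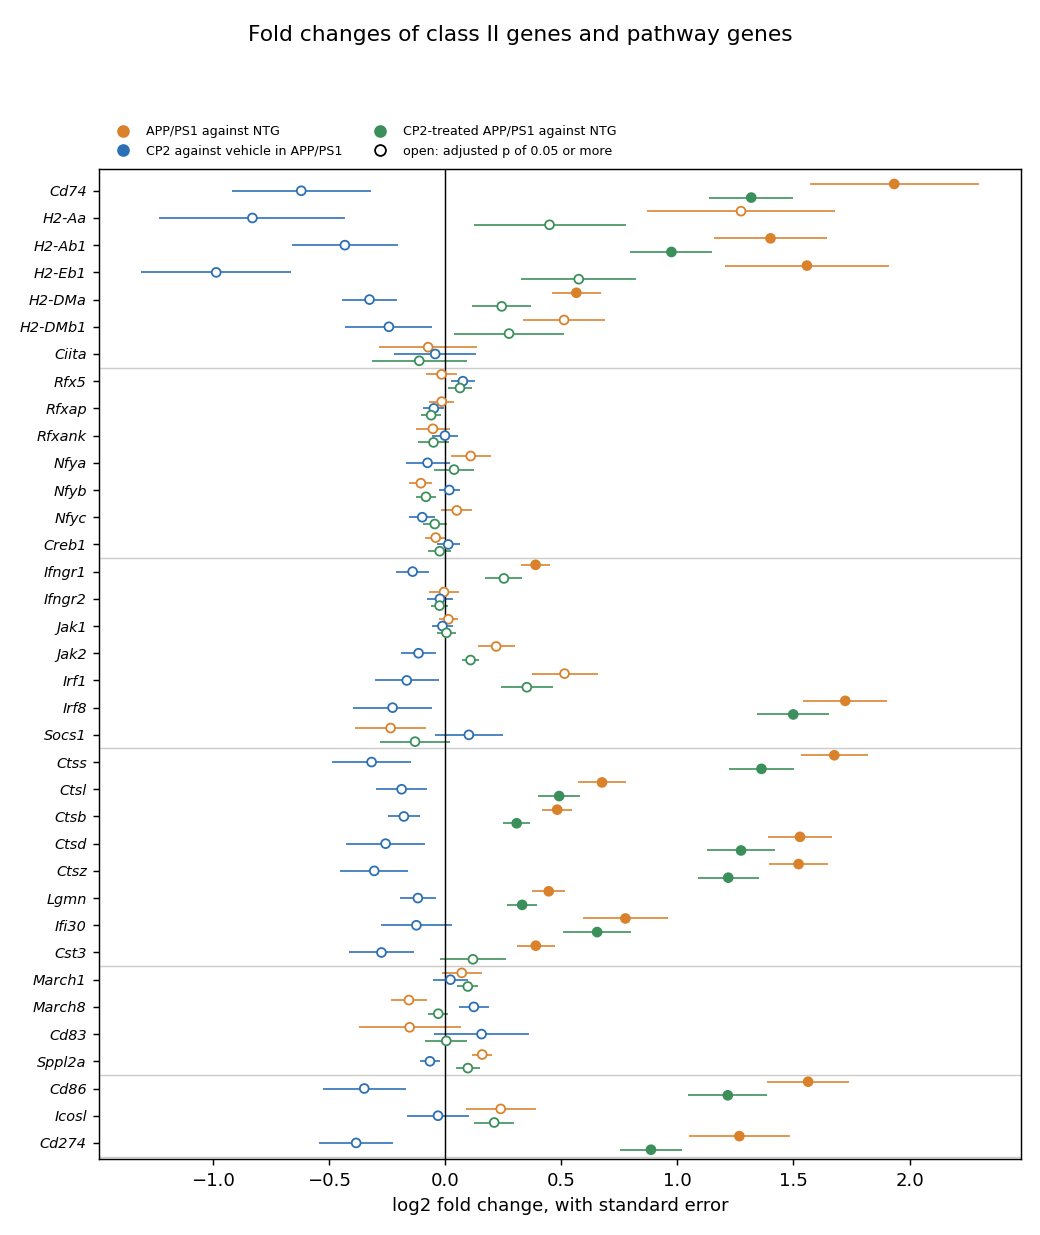
Log2 fold change with its standard error for the 7 class II genes (top block) and tested genes of 5 pathway lists, in 3 comparisons, filled where the adjusted p was under 0.05 in edgeR. Class II transcription genes lie near 0, antigen processing genes lie to the right in both comparisons with NTG, and no point of CP2 against vehicle is filled.

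Markers of cells that can carry class II moved with part of these results, and their part in them was not tested. Of 8 microglia markers 7 were called higher in APP/PS1 than in NTG mice (Cx3cr1 by 1.10 and P2ry12 by 0.31 on the log2 scale), and their summed level was 338.8 to 357.4 CPM in NTG, 615.2 to 802.9 in APP/PS1 and 514.3 to 756.7 CPM in CP2-treated mice. Of the dendritic cell list Itgax, which plaque microglia also express, was called (1.01 CPM in NTG and 11.3 CPM in APP/PS1, means), while the other tested genes Flt3 and Zbtb46 were not called, and Xcr1 and Ccr7 had at most 19 and 16 counts in any mouse. The 7 dendritic markers summed to 23.7 to 32.7 CPM in NTG, 26.2 to 41.1 in APP/PS1 and 31.9 to 37.9 CPM with CP2. This sum includes Itgax, with a mean of 10.1 CPM with CP2. Mean Flt3 was 12.3 CPM in NTG, 10.2 in APP/PS1 and 12.2 with CP2, and mean Zbtb46 was 12.1, 11.6 and 11.7 CPM. Neither of these 2 rose from NTG.

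Border macrophage markers (6 genes) summed to 9.31 to 12.6 CPM in NTG, 12.2 to 16.7 in APP/PS1 and 11.03 to 15.5 CPM with CP2, with 0 of 3 tested genes called by edgeR (Cd163, with log2 fold changes of 0.77 in APP/PS1 against NTG and -0.66 for CP2 against vehicle, was the only one at an unadjusted p under 0.05), and 4 monocyte markers to 22.8 to 26, 24.1 to 28.9 and 24.5 to 27.8 CPM in the same order, with 0 of 2 called (at most 1 unadjusted). B cell markers (5 genes) summed to at most 3.46 CPM in any mouse and none passed the filter. The 7 T cell markers summed to 1.92 to 2.72 CPM in NTG, 3.34 to 23.9 in APP/PS1 and 2.48 to 3.78 CPM with CP2, and Cd4 alone had 21.4 CPM in mouse 16. Choroid plexus markers (5 genes) summed to between 19.9 and 1345 CPM over all mice, and edgeR called 0 of them (0 unadjusted). Red blood cell genes moved in the same direction: Hba-a1 (1.77, adjusted p = 0.0057) and Hba-a2 (1.83, adjusted p = 0.0233, edgeR), alpha globins, were 2 of 5 called higher in APP/PS1 than in NTG mice, 0 were called for CP2 against vehicle and Hba-a2 (1.98) for CP2-treated mice against NTG. The 5 genes summed to 82.5 to 151 CPM in NTG, 113 to 472 in APP/PS1 and 136 to 443 CPM with CP2. Of 5 endothelial genes Pecam1 was called in APP/PS1 against NTG (0.40, adjusted p = 0.00965), with sums of 144 to 152 CPM in NTG, 140 to 209 in APP/PS1 and 161 to 183 CPM with CP2. For CP2-treated mice against NTG, Flt1 (0.33, adjusted p = 0.00629), Slco1a4 (0.32, adjusted p = 0.0409) and Pecam1 (0.31, adjusted p = 0.016, edgeR) were called higher. None of the endothelial genes was called for CP2 against vehicle. In none of these lists was a gene at 0 in all mice of a group.

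Other class II genes of the locus showed values that differed between single mice within groups. H2-Ea-ps (chromosome 17, 34342933 to 34344643) is the locus of the I-E alpha chain, the partner of the H2-Eb1 product. In mice of the H2-b haplotype, such as C57BL/6, and of the H2-s haplotype, such as SJL, its promoter carries a deletion and it is not transcribed. Some other haplotypes transcribe it. It had 0, 1, 0 and 0 counts in NTG mice 7 to 10. APP/PS1 mice 16 to 20 had 94, 206, 378, 127 and 70 counts. CP2-treated mice 21 to 25 had 135, 128, 2, 1 and 2 counts. Mice 16 to 22 therefore had the transcript and the 4 NTG mice and mice 23 to 25 had close to none.

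H2-Ea-ps did not pass the filter. Without the filter its adjusted p was 8.29e-05 in APP/PS1 against NTG, 0.778 for CP2 against vehicle and 0.0635 for CP2-treated APP/PS1 against NTG (edgeR). Gm8909 and Gm20452, chosen after their values were seen, are both on chromosome 17 near 36164443 and 36500360, and the same mice had their counts. Gm8909 had 17, 12, 1 and 4 counts in NTG, 130, 233, 451, 220 and 163 in APP/PS1, and 138, 167, 11, 20 and 16 counts with CP2. Gm20452 had 0 counts in all NTG mice and in mice 23 to 25, 4 to 31 in APP/PS1 mice and 7 in each of mice 21 and 22. The H2 haplotypes of these mice were not tested, and how reads from an allele that differs from mm10 were aligned was not tested either. In NTG against APP/PS1 the genotype and this on or off pattern cannot be told apart, and this holds for every gene compared above, on chromosome 17 or not. For CP2 against vehicle, treatment and this pattern are partly confounded, since all 5 vehicle mice but only mice 21 and 22 of the CP2-treated mice had the transcript. In CP2-treated APP/PS1 against NTG, group and pattern are partly confounded too, since mice 21 and 22 had the transcript and the 4 NTG mice close to none. Cd74 on chromosome 18 and Ciita on chromosome 16 were compared between the same mice. Among CP2-treated mice, Ctsd had 1068.6 and 1171.6 CPM in mice 21 and 22 and 837.6, 712.4 and 708.9 in mice 23 to 25. Irf8 had 20.8 and 20.9, then 15.4, 14.4 and 14.1 CPM in the same order. Cd74 was highest in mouse 23 and Ciita in mouse 25 of this group. Whether the pattern bears on genes outside the locus was not tested.

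H2-Ob had a different set of high mice. Its level was 0.614 to 2.54 CPM in NTG, 1.85 to 7.25 in APP/PS1 and 2.28 to 6.6 CPM with CP2. In raw counts mice 18, 19, 22, 23 and 24 had 622, 576, 547, 510 and 618, and the other 9 mice had 49 to 227. H2-DMb2 had 215 and 187 counts in mice 18 and 19, and the other mice had 38 to 133. H2-Ob had a log2 fold change of 1.16 (adjusted p = 0.25) in APP/PS1 against NTG, 0.29 (adjusted p = 0.89) for CP2 against vehicle and 1.45 (adjusted p = 0.0661, edgeR) for CP2-treated mice against NTG.

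H2-Oa, the other chain of H2-O, had 19, 9, 37 and 22 counts in NTG, 69, 132, 90, 59 and 159 in APP/PS1 and 115, 45, 55, 71 and 74 counts with CP2. Every transgenic mouse was above every NTG mouse. It did not pass the filter, and without the filter its adjusted p was 0.0117 in APP/PS1 against NTG and 0.0225 in CP2-treated APP/PS1 against NTG (edgeR). H2-Eb2 had 6 to 17 counts in all mice. Of this list of 5 genes only H2-Ob was tested with the filter, and it was not called.

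**Figure D5:**
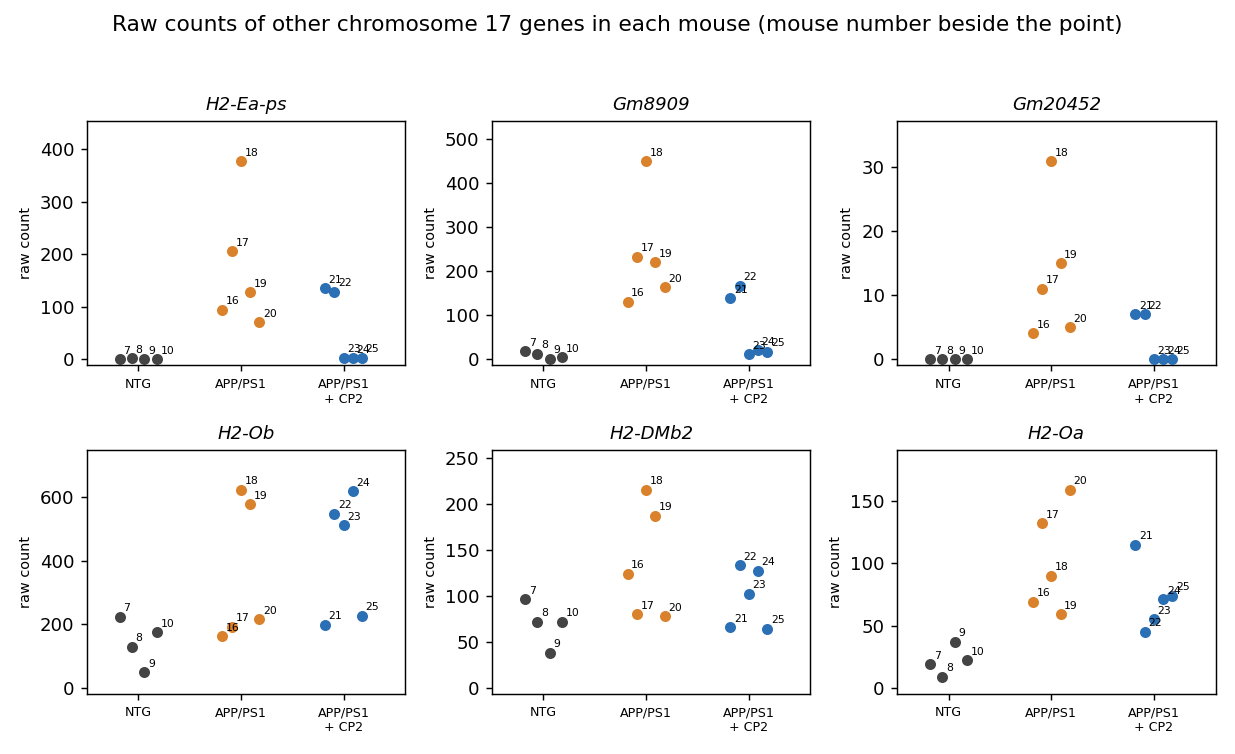
Raw counts of 6 other chromosome 17 genes, with 1 numbered point per mouse. H2-Ea-ps, Gm8909 and Gm20452 are near 0 in NTG mice 7 to 10 and in mice 23 to 25, H2-Ob is high in mice 18, 19, 22, 23 and 24, and H2-Oa is higher in all transgenic mice than in NTG.

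Across the stretch of chromosome 17 that holds the 5 H2 members (34035182 to 34416199, which reaches 100 kb beyond them on each side), 25 genes were not members and 11 of these were tested in APP/PS1 against NTG. Of the 11, 4 were called, all higher: the immunoproteasome subunits Psmb8 (1.64) and Psmb9 (1.22), the peptide transporter Tap1 (1.23) and Gm20496 (1.15), whose position overlaps Psmb8 and Tap2. A read was counted on every gene it overlapped, so Gm20496 may not be a separate call. The background shares are those given for each comparison above. As for the members, genotype and the on or off pattern of H2-Ea-ps cannot be told apart here. With CP2 against vehicle 0 of 10 were called in edgeR, and 1 had an unadjusted p under 0.05 (Psmb8, log2 fold change -0.45). In CP2-treated APP/PS1 against NTG mice 5 of 11 were called, all higher, with Tap2 (0.27) as the fifth.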

How the data were processed

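RNA from brain cross-sections with hippocampus and cortex was sequenced by the authors (TruSeq v2, paired 101-base reads) from 14 mice, and reads were aligned to mm10 with TopHat2 in the MAP-RSeq pipeline and counted with featureCounts on Ensembl genes, each read on every gene it overlapped. The strand setting is not given in the sources used here. The deposited table holds counts and RPKM per mouse, both made by the authors. Some symbols stood as dates (March1) and were read by gene ID.

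Counts were tested with edgeR 4.0.16 (quasi-likelihood, TMM) in R 4.3.3 for each pair of groups, on genes with a CPM over 1 in every mouse of at least 1 group, with Benjamini-Hochberg adjustment over all genes tested and a threshold of 0.05. Ratios to Cd74 used exact two-sided permutation tests. Log2 CPM for correlations used a prior count of 2. RPKM served only to order levels between genes and, as an alternative, the ratios. Alternatives were DESeq2 1.42.0, limma-voom (limma 3.58.1) with sample quality weights, RLE and upper-quartile factors, other filters, all 3 groups in one fit, each mouse left out, and the ribosomal RNA share as a covariate, the last chosen after seeing the data. The fit was tested on simulated data.

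The members and lists were chosen with earlier results of these data known. Named were the 7 members, up to 4 genes of each pathway list by smallest p or defining role, cell type markers, and the 8 genes most like the members. Total counts per mouse of 70548781 to 106235625 mean that 1 count equals 0.00918 to 0.0149 CPM. Values of some listed genes are not reported here.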

Additional observations from a re-analysis of the deposited data

Results flagged for a closer look

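Among 36 sets of values examined for a mouse far from its group, 2 were found, and chance alone gives about 1 in 20. Cd74 in CP2-treated mouse 23 was 25.51 CPM, and the gap to the next mouse took up 0.765 of the range of its group of 5. H2-Ea-ps in NTG mouse 8 was 0.0149 CPM, which is 1 count where the other NTG mice had 0, so the whole range of that group rests on a single count.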

How the results depend on the processing

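No paired analysis was possible because the groups share no replicate numbers. Of 364 refits of a member's log2 fold change, 343 kept direction and side of the threshold, 10 lost the call, 2 gained it and 9 changed sign, all 9 for Ciita, which was called in none. Those Ciita values in APP/PS1 against NTG were 0.0044 without mouse 7, 0.0605 without mouse 8 and 0.0195 without mouse 17, in a range of -0.222 to 0.0605 with each mouse left out. For CP2 against vehicle they were 0.0142 with limma-voom, 0.0576 with the ribosomal covariate, 0.0674 without mouse 16, 0.0028 without mouse 22 and 0.025 without mouse 24 (range -0.168 to 0.0674), and for CP2-treated APP/PS1 against NTG 0.019 without mouse 8 (range -0.26 to 0.019). Members called in APP/PS1 against NTG were 0 with the ribosomal covariate and 3 to 5 with each mouse left out. At an unadjusted p, CP2 against vehicle gave 4 members without a filter, 4 with all 3 groups in one fit, 0 with the covariate and 2 to 5 with each mouse left out (5 without mouse 19, 4 without mouse 20). The members under that threshold were H2-Eb1, H2-DMa and H2-Aa with DESeq2, and H2-Eb1 and Cd74 with limma-voom. Called members stayed at 0 for CP2 against vehicle and at 2 for CP2-treated APP/PS1 against NTG in each leave-one-out fit. Pathway genes called ranged over 10 to 14, 0 to 0 and 10 to 12 in the order of comparisons. The ratio tests could hardly pass with a mouse left out, so they say nothing on stability. Over the alternatives the adjusted p in APP/PS1 against NTG ran from 6.37e-05 to 0.0641 for Cd74, 1.1e-06 to 0.0689 for H2-Ab1, 0.000147 to 0.228 for H2-Eb1 and 3.52e-05 to 0.0897 for H2-DMa. Of the 8 genes most like the members, 3 remained with Spearman's correlation and 1 with Cd74 alone, and the cause was not tested.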

Other observations

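The class I genes H2-K1 and H2-D1, chosen after their values were seen, present peptides to CD8 T cells. H2-K1 had 13.9, 17, 30.4 and 21.7 CPM in NTG mice 7 to 10, 33.4 to 66.3 CPM in APP/PS1 and 28.9 to 61.1 CPM in CP2-treated mice. Its log2 fold change in APP/PS1 against NTG was 1.36 (adjusted p = 0.0117, edgeR), and that of H2-D1 was 1.26 (adjusted p = 0.015). Both genes lie on chromosome 17, and for them too genotype and the on or off pattern of H2-Ea-ps cannot be told apart. Btnl2, a butyrophilin-like gene of the class II region also chosen after its values were seen, had 45, 19 and 8 counts in CP2-treated mice 23, 24 and 25, and 0 to 8 counts in the other 11 mice.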
